A study of Mus musculus with 18 samples.

Results

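The fatty acid uptake and beta-oxidation genes described here are a fixed list of 33 mouse genes whose products bring long-chain fatty acids into the heart muscle cell, carry them into mitochondria, oxidise them there, or switch those genes on. Members were found by gene symbol in the platform annotation of the array: 29 of the 33 had a probe set with their symbol alone, among 8251 such genes on the array, and 27 were bright enough to be tested. Acsl1, Cpt1b, Hadha and Acot2 had no such probe set in the annotation used here and were not analysed. Acadvl and Acot1 were measured but fell below the filter on dim probe sets.

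The study hybridised total RNA of each heart sample to 1 Affymetrix U74Av2 array, which reads a gene with sets of short oligonucleotide probes. Transgenic hearts, titled TNFTG, carried a tumour necrosis factor alpha transgene that the labels call cardiac-specific, without naming its promoter. They came from 3 females and 3 males of 3 weeks, 3 males of 13 weeks and 3 females of 40 weeks. The FVB hearts, without the transgene, were all of 3 weeks, with 2 distinct female arrays and 3 arrays labelled male. The labels name the FVB strain only for these hearts and do not give the background of the transgenic mice. They set the study in compensated hypertrophy and later dilated failure, but do not say at which age each stage falls. Nothing in the labels says that a group's samples are separate animals, so p-values weigh differences only against the spread of these arrays, part of which may be technical.

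Fatty acids are the main fuel of the adult heart. Lipoprotein lipase frees them from circulating triglyceride, Cd36 and fatty acid transport protein carry them across the plasma membrane, and a binding protein holds them in the cytosol. The carnitine shuttle then passes their acyl groups into mitochondria, where rounds of dehydrogenation, hydration, a second dehydrogenation and thiolysis shorten the chain and hand electrons to the respiratory chain through the electron transfer flavoprotein. The nuclear receptor PPAR alpha, paired with a retinoid X receptor and helped by the coactivator PGC-1 alpha, is known to switch on many of these genes in rodent heart.

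Since PPAR alpha and its partner read repeats of the nuclear receptor half-site AGGTCA, the 250 bases before the annotated start were searched for it on both strands in the RefSeq promoters of assembly GRCm38.p6. Of the 33 genes 28 had an entry, with 32 promoters between them. The 4 promoters below are shown because 3 belong to genes that fell in transgenic hearts and hold the half-site (Cd36, Ucp3 and Acadm) and 1 belongs to Cpt1a, the sole member that rose and which holds it too. They lie at chr5:17835897-17836146 (minus strand), chr7:100472741-100472990 (plus strand), chr3:153944644-153944893 (minus strand) and chr19:3323051-3323300 (plus strand), in the order printed. Capitals mark the half-site, as AGGTCA or as TGACCT where it lies on the opposite strand.
Cd36: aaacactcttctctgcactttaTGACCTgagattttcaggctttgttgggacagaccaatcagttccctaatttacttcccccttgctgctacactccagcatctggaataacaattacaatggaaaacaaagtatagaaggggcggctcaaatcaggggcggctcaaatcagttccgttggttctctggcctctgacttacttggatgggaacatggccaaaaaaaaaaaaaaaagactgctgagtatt
Ucp3: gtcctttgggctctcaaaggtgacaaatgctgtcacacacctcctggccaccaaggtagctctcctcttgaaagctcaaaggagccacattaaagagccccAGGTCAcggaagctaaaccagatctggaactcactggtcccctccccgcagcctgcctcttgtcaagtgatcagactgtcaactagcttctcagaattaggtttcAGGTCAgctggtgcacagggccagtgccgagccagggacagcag
Acadm: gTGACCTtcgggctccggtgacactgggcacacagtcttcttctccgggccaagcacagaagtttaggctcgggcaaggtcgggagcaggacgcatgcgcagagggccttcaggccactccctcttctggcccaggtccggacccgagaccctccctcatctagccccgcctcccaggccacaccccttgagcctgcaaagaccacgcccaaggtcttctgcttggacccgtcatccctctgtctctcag
Cpt1a: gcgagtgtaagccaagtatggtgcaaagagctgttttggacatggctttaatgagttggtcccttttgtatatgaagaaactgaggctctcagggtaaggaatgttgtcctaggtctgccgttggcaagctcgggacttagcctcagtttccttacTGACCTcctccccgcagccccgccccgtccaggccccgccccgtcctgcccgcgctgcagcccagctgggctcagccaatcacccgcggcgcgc

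The half-site stood in 7 of the 32 member promoters (those of Acadm, Acadvl, Cd36, Cpt1a, Echs1 and Ucp3, and 1 of Rxra), against 14.0% of all 32851 promoters in the table. The longer form AAGGTCA, which overlaps the half-site, stood in 2 of the 32, against 4.08% of all. The direct repeat AGGTCANAGGTCA, with any base at N, the form that PPAR and retinoid X receptor pairs are known to bind, stood in 0 of the 32 and in 11 of all promoters. These letters are a description of short windows, with no test. They occur before members that fell and before the member that rose.

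Before the results, 4 facts of the arrays bear on them. FVB female columns 1 and 2 hold identical values and were counted as 1 array, which also stands apart: its highest Spearman correlation with any other array was 0.832, against at least 0.952 for every other array with its nearest, and 7.33% of its probe sets lay below the floor, against 23.7% to 28.3% elsewhere. Of the 3 arrays labelled FVB male, 2 carried Xist, an RNA of female cells, at 1381 (male 1) and 2706 (male 2). No other male array passed 34.7. Eif2s3y, a gene of the Y chromosome, read 299 on FVB male 1, 67.4 on male 2 and 545 on male 3. It read 348 to 484 in transgenic males and 2.9 to 30.8 in transgenic females. On FVB female arrays 1-2 and 3 it read 115 and 40.9. Sex labels in FVB are therefore in doubt, and the cause was not tested. Tnf itself read 5476 to 12082 in transgenic hearts and 12.5 to 125 in FVB hearts. The ratio of 3' to 5' Actb probe sets, a sign of RNA integrity, averaged 1.27 ± 0.10 in transgenic hearts of 3 weeks and 1.71 ± 0.26 in FVB hearts (SD, n = 6 and 5, exact permutation test, two-sided, p = 0.0087, or 0.026 after adjustment over 3 such measures), while the Gapdh ratio averaged 1.005 ± 0.089 in transgenic and 1.06 ± 0.08 in FVB hearts (exact permutation test, two-sided, p = 0.28, adjusted 0.38).

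**Figure D1:**
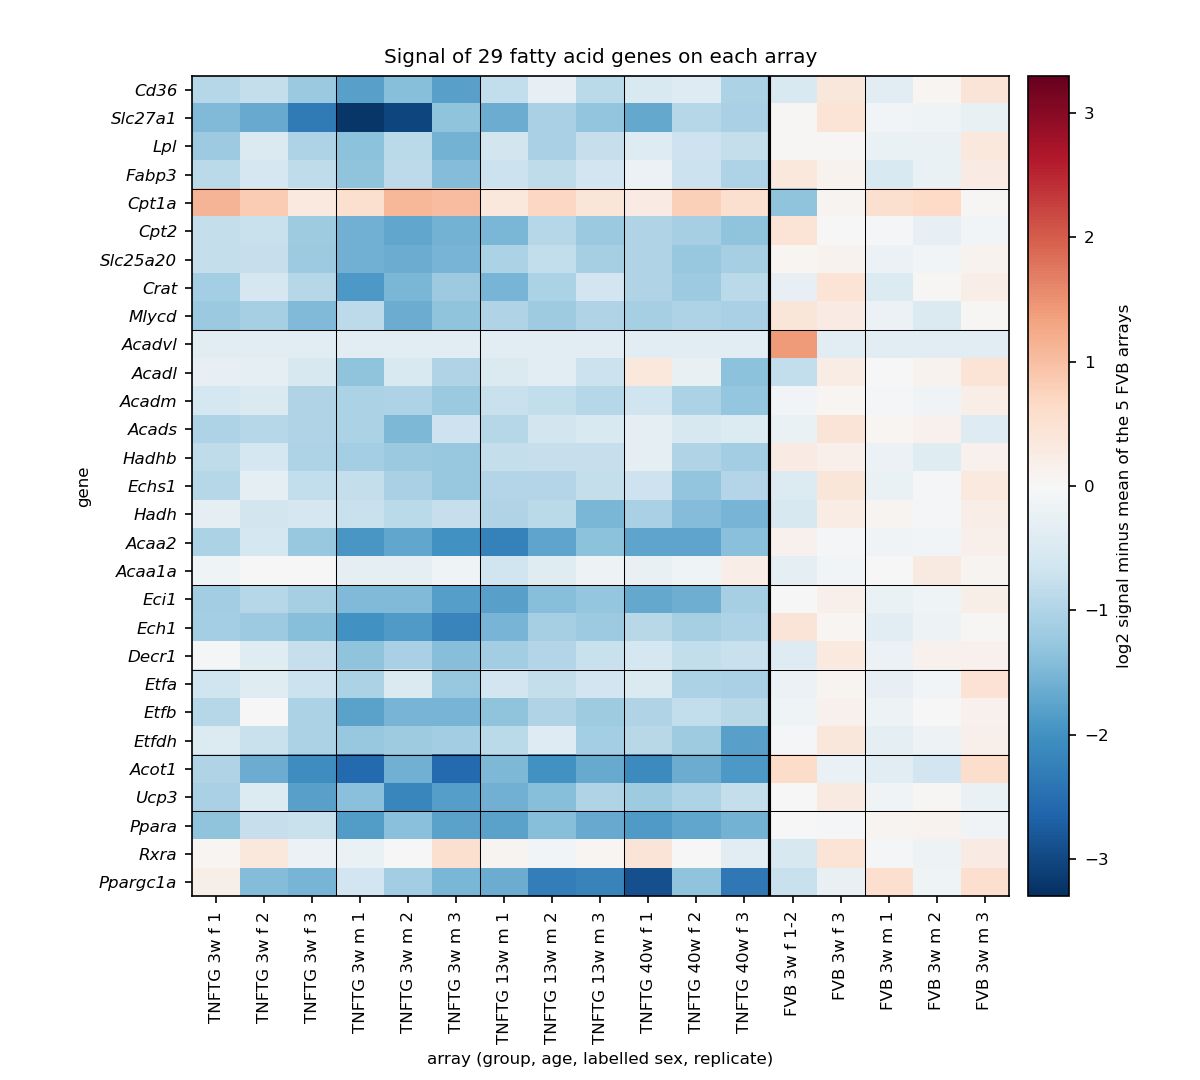
Heat map of the 29 measured genes (rows, grouped by role) on the 17 distinct arrays (columns), as log2 signal minus the mean of the 5 FVB arrays, with signals under 44.7 set to that floor. Most rows are blue across all 12 transgenic arrays, Cpt1a is red there, and Acadvl is at the floor on every array but FVB female 1-2.

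At 3 weeks most of the module was lower in transgenic hearts. Of the 27 members tested, 23 fell, 1 rose (Cpt1a) and 3 did not pass the test (Acadl, Acaa1a and Rxra), by limma's moderated test with Benjamini-Hochberg adjustment over all 7453 probe sets tested, called at 0.05. Of all probe sets 46.6% were called in this comparison, 21.9% as lower and 24.7% as higher. The median log2 difference over the 27 members was -1.05, transgenic minus FVB, against -0.0065 over all probe sets. The 23 that fell ranged from -2.21 (Slc27a1) to -0.62 (Hadh) on the log2 scale, and 16 of them were at least 2-fold lower. That count depends on the scaling. Under quantile normalisation Lpl, Fabp3, Hadhb and Etfb were less than 2-fold lower, at -0.78, -0.71, -0.76 and -0.96. No other member crossed the 2-fold line. The mean level of the 23 in transgenic hearts was between 24.8% and 63.4% of that in FVB hearts, with a median of 48.0%. In 18 of the 27 members all 6 transgenic arrays of 3 weeks lay below all 5 FVB arrays, a separation that 9.14% of all probe sets showed.

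Markers of heart muscle cells and of macrophages moved with this result. Of the 14 cardiomyocyte markers measured, 12 fell and 0 rose, with a median log2 difference of -0.92. Their summed signal ran from 126700 to 240500 in transgenic hearts of 3 weeks and from 237800 to 375800 in FVB hearts, with none of the 14 below the floor on any array. Of 20 macrophage markers, 17 were tested, 15 rose and 1 fell, with a median of 2.65 and a summed signal of 50170 to 65200 in transgenic hearts against 7667 to 11560 in FVB hearts. Up to 6 of the 20 were below the floor on an FVB array and at most 1 on a transgenic array of 3 weeks. Endothelial markers moved less, with 1 of 12 higher, 3 lower and a median of 0.14. Summed, the 29 fatty acid genes read 55180 to 100300 in transgenic hearts of 3 weeks and 127800 to 169700 in FVB hearts. These sums did not overlap. The cardiomyocyte sums overlapped in only 1 array of each group, transgenic female 2 at 240524 and FVB male 2 at 237794. In bulk tissue, fewer cells of a type and less RNA per cell cannot be told apart. The part of cell makeup and of the Actb ratio in the module's fall was not tested.

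**Figure D2:**
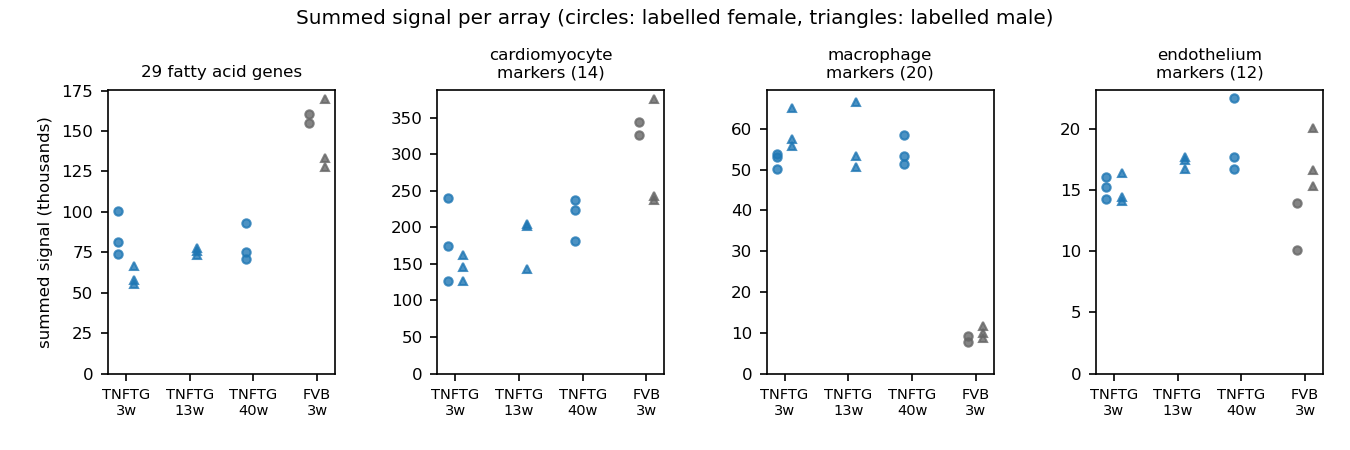
Summed signal per array, divided by 1000, for the 29 fatty acid genes and for the cardiomyocyte, macrophage and endothelial markers, in transgenic hearts of 3, 13 and 40 weeks and in FVB hearts (1 point per array). Every transgenic array lies below every FVB array for the fatty acid genes, and above them for the macrophage markers.

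All 4 genes of fatty acid uptake fell, with a median log2 difference of -1.20. Slc27a1, which encodes fatty acid transport protein 1, had signals of 89.6 to 333 with a median of 214 in transgenic hearts of 3 weeks, against 848, 1140, 775, 759 and 698 in FVB hearts. The highest transgenic array read less than the lowest FVB array. Its log2 difference, -2.21 ± 0.29 (SE, limma, adjusted p = 1.6e-05), was the largest fall of the module. Cd36, the main fatty acid transporter of the heart muscle membrane, read 289 to 578 with a median of 406 in transgenic hearts, against 710, 1290, 777, 1057 and 1352 in FVB hearts. The groups did not overlap, and the difference was -1.31 ± 0.20 on the log2 scale (SE, limma, adjusted p = 8.4e-05). Lpl, the lipase that frees fatty acids from lipoproteins, averaged 8762 ± 2384 in transgenic hearts and 18249 ± 3072 in FVB hearts (SD, n = 6 and 5). Fabp3, the fatty acid binding protein of heart cytosol, averaged 8392 ± 1862 in transgenic hearts and 16572 ± 3822 in FVB hearts. Neither Lpl nor Fabp3 overlapped between the groups, and their log2 differences were -1.09 and -1.02. A second probe set of Lpl gave -1.06 (limma, adjusted p = 5.1e-04).

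The carnitine shuttle role here includes Mlycd, which acts on the first step of the shuttle and is not part of it. In this role 4 of 5 tested members fell. Cpt1a, the first enzyme of the shuttle in liver and a minor form in adult heart, rose. Cpt1a read 714 to 1260 with a median of 1101 in transgenic hearts of 3 weeks, against 231, 614, 831, 907 and 592 in FVB hearts. The groups overlapped, since 2 transgenic arrays, at 714 and 830.5, lay below the 2 highest FVB arrays, and the value of 231 belongs to the FVB array that stands apart. The difference was 0.93 ± 0.24 on the log2 scale (SE, limma, adjusted p = 0.0047), and without that array it was 0.57, a change of over 1.5 times, with an adjusted p of 0.038. Without FVB female 3, which leaves the array that stands apart as the only FVB female, it was 1.28. The muscle form Cpt1b, which makes up most of this activity in adult heart, was not analysed here, so the sum of the 2 forms is unknown.

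The other genes of the carnitine shuttle role lay close together at a log2 difference of -1.22 to -1.33. Mlycd, whose enzyme removes malonyl-CoA, the inhibitor of Cpt1, read 772 to 1331 with a median of 994.5 in transgenic hearts, against 3164, 2918, 2114, 1722 and 2462 in FVB hearts. No transgenic array reached the lowest FVB array, and the difference was -1.33 ± 0.15 on the log2 scale (SE, limma, adjusted p = 3.0e-06). Cpt2, which turns acylcarnitine back to acyl-CoA inside the mitochondrion, averaged 2370 ± 719 in transgenic hearts and 5542 ± 1118 in FVB hearts (SD, n = 6 and 5). Slc25a20, the translocase that exchanges acylcarnitine for carnitine, averaged 1101 ± 313 in transgenic hearts and 2547 ± 236 in FVB hearts. Crat, which buffers acetyl-CoA as acetylcarnitine, averaged 1560 ± 488 in transgenic hearts and 3537 ± 885 in FVB hearts. The arrays of the 2 groups did not overlap for any of these 3 genes, and a second probe set of Crat gave -1.11 (limma, adjusted p = 0.0016).

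**Figure D3:**
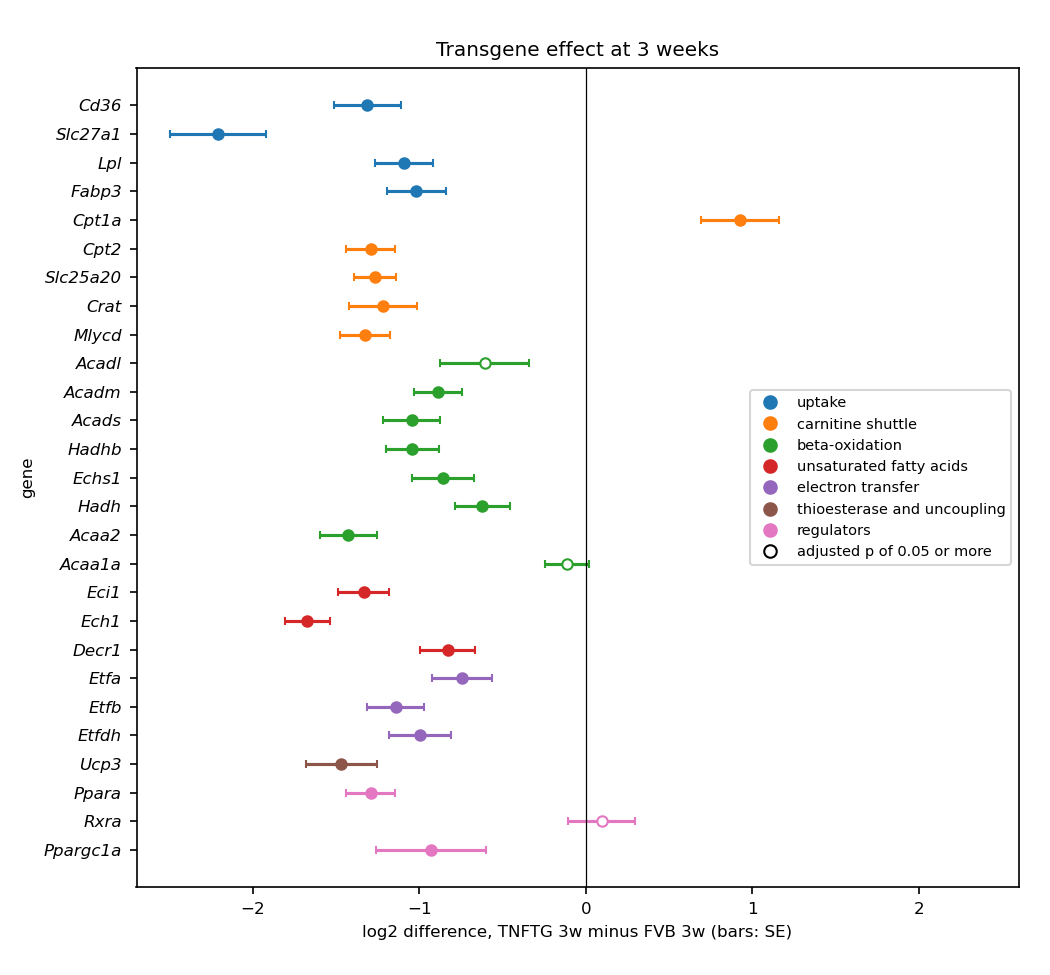
Log2 difference at 3 weeks, transgenic minus FVB, for the 27 tested members, coloured by role, with the SE as bars; open points did not pass the test. All points lie left of 0 except Cpt1a at 0.93 and Rxra at 0.10, and Slc27a1 lies farthest left at -2.21.

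Among the enzymes of the beta-oxidation spiral 6 of 8 tested members fell, and the median log2 difference was -0.87. The strongest fall was that of Acaa2, the mitochondrial thiolase of the last step, which read 3259 to 8800 with a median of 4725 in transgenic hearts of 3 weeks, against 14321, 12556, 12019, 12191 and 14604 in FVB hearts. Its log2 difference was -1.43 ± 0.17 (SE, limma, adjusted p = 5.7e-06), with no overlap. The weakest call was Hadh, the dehydrogenase of short and medium hydroxyacyl-CoA, which read 1681 to 2510 with a median of 1965 in transgenic hearts, against 2177, 3730, 3320, 3004 and 3665 in FVB hearts. Here the groups overlapped in the FVB array that stands apart, and the difference was -0.62 ± 0.16 on the log2 scale (SE, limma, adjusted p = 0.0059). Acaa1a, the only peroxisomal thiolase of the list, averaged 1064 ± 98.3 in transgenic hearts and 1185 ± 181 in FVB hearts (SD, n = 6 and 5), a log2 difference of -0.11 that did not pass the test.

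The acyl-CoA dehydrogenases, which open each round at different chain lengths, were not alike in what could be shown. Acadm, for medium chains, averaged 5981 ± 1269 in transgenic hearts and 10928 ± 1046 in FVB hearts (log2 difference -0.89), and Acads, for short chains, averaged 567 ± 96.5 in transgenic hearts and 1167 ± 264 in FVB hearts (log2 difference -1.05). Neither overlapped, and a second Acads probe set gave -0.71 (limma, adjusted p = 0.017). Acadl, for long chains, read 1728 to 3575 in transgenic hearts and 2449 to 5916 in FVB hearts, with a log2 difference of -0.61 ± 0.27 (SE, limma, adjusted p = 0.074). Its lowest FVB value is that of the array that stands apart, and without that array the difference was -0.87 (limma, adjusted p = 0.0225). Without FVB female 3, which leaves the array that stands apart as the only FVB female, it was -0.34. Acadvl, for very long chains, was below the floor on 16 of the 17 arrays and gives no comparison. Hadhb, a subunit of the trifunctional protein that handles long chains, averaged 7320 ± 1380 in transgenic hearts and 14714 ± 2762 in FVB hearts, with no overlap, while Echs1, the short-chain hydratase, differed by -0.86 and overlapped.

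All 3 enzymes that prepare unsaturated fatty acids for the spiral fell, with a median log2 difference of -1.34. Ech1, which shifts paired double bonds, read 2774 to 5766 with a median of 4070 in transgenic hearts of 3 weeks, against 16965, 13087, 9732, 11099 and 12947 in FVB hearts. The lowest FVB array stood well above every transgenic array, and the log2 difference of -1.67 ± 0.13 (SE, limma) had the smallest adjusted p of the members, 6.8e-08. Eci1, an isomerase of enoyl-CoA, read 1858 to 3418 with a median of 2681 in transgenic hearts, against 6569, 7347, 5696, 6014 and 7548 in FVB hearts. Its groups did not overlap either, and its log2 difference was -1.34 ± 0.15 (SE, limma, adjusted p = 3.2e-06). Decr1, the dienoyl-CoA reductase, averaged 845 ± 320 in transgenic hearts and 1450 ± 286 in FVB hearts (SD, n = 6 and 5), with an overlap and a log2 difference of -0.83.

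The 3 genes that pass electrons on from the acyl-CoA dehydrogenases also fell. Etfa, a subunit of the electron transfer flavoprotein, read 2893 to 5249 with a median of 4258 in transgenic hearts, against 6034, 7284, 5695, 6450 and 9528 in FVB hearts. The groups came close without overlapping, and the difference was -0.75 ± 0.18 on the log2 scale (SE, limma, adjusted p = 0.0033). Etfb, the other subunit, differed by -1.14, with 1 transgenic female array at 9574, inside the FVB range of 8587 to 10808. Another Etfb probe set differed by -0.27 and did not pass the test (limma, adjusted p = 0.50), so the size for Etfb depends on the probe set. Etfdh, the oxidoreductase that passes the electrons to ubiquinone, averaged 1641 ± 382 in transgenic hearts and 3197 ± 628 in FVB hearts (SD, n = 6 and 5).

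Ucp3, a mitochondrial carrier that rises with fatty acid supply in rodent muscle, read 52.6 to 171 with a median of 78.5 in transgenic hearts of 3 weeks, against 233, 287, 213, 241 and 201 in FVB hearts. The groups did not overlap, and the difference was -1.47 ± 0.21 on the log2 scale (SE, limma, adjusted p = 4.5e-05). Acot1, a cytosolic acyl-CoA thioesterase, was too dim on average for the test, and averaged 74.9 ± 35.0 in transgenic hearts and 280 ± 111 in FVB hearts (SD, n = 6 and 5). Its highest transgenic array read 133 and its lowest FVB array 170.

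Of the 3 regulators, Ppara and Ppargc1a fell and Rxra did not pass the test. Ppara, which encodes PPAR alpha, read 557 to 1200 with a median of 783 in transgenic hearts of 3 weeks, against 1980, 1909, 2111, 2174 and 1830 in FVB hearts. The FVB arrays lay within a narrow band above every transgenic array, and the difference was -1.29 ± 0.15 on the log2 scale (SE, limma, adjusted p = 3.2e-06). Ppargc1a, which encodes PGC-1 alpha, read 180 to 601 with a median of 214 in transgenic hearts, against 316, 443, 767, 475 and 762 in FVB hearts. A pair of transgenic arrays, a female at 601 and a male at 336, lay inside the FVB range. The log2 difference of -0.93 ± 0.33 (SE, limma, adjusted p = 0.031) lost its call when any one of 7 arrays was left out (FVB female 3, FVB males 1 or 3, transgenic females 2 or 3, or transgenic males 2 or 3), with adjusted p up to 0.092. Rxra, the retinoid X receptor alpha, read 388 to 651 with a median of 464 in transgenic hearts, against 314, 617, 439, 406 and 551 in FVB hearts. These ranges overlap almost wholly and the difference was 0.10 ± 0.20 on the log2 scale (SE, limma, adjusted p = 0.73). A second, dimmer Rxra probe set was called lower at -0.56 ± 0.15 (SE, limma, adjusted p = 0.0058), so the probe sets of Rxra disagree.

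**Figure D4:**
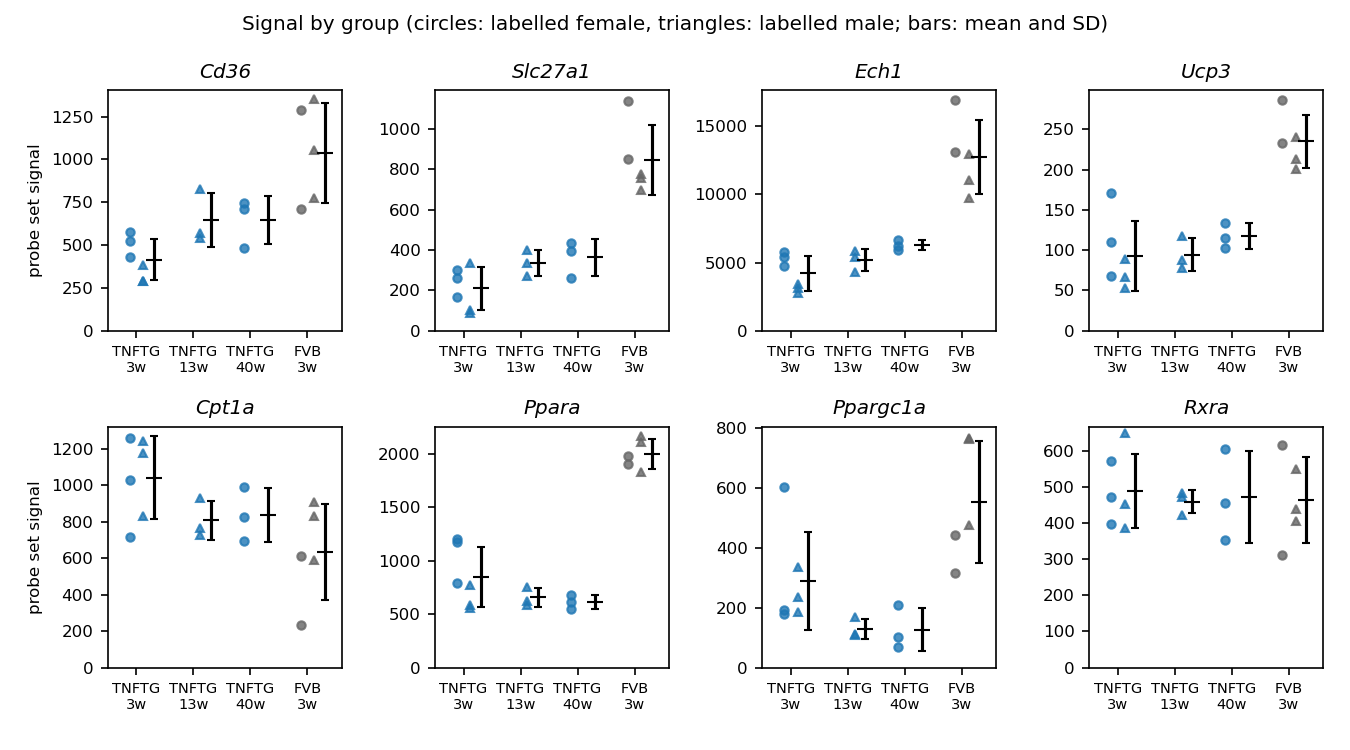
Probe set signal of 8 members by group, with 1 point per array (circles labelled female, triangles labelled male) and the mean and SD beside the points. Cd36, Slc27a1, Ech1, Ucp3 and Ppara show all transgenic arrays of 3 weeks below all FVB arrays, Cpt1a lies higher in transgenic hearts, and Rxra overlaps.

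All 23 members that fell had negative differences within females and within males, and in 21 of them the difference was larger in males. Female minus male, the transgene effect was positive in 25 of the 27 members, against 52.6% of all probe sets. This tilt rests on FVB groups whose sex labels are in doubt. Its size also depends on scaling, as given in the last section. Within females 17 members fell and Cpt1a rose, where 34.7% of all probe sets were called and 15.3% as lower. Within males 24 members fell and 0 rose by limma (25 lower and 0 higher at an unadjusted p under 0.05), where 29.7% of all probe sets were called and 12.8% as lower. Without the FVB female array that stands apart, 14 members fell in females and Cpt1a was no longer called, with 6.19% of all probe sets called lower in that fit. Without the 2 FVB male arrays that carry Xist, 21 fell in males, with 6.80% of all called lower. In each of these fits only the remaining FVB array stood for that sex. The difference between the sexes was tested as a contrast of its own and no member was called by limma, nor was any of the 7453 probe sets (0%). This result depends on FVB female 3: without it only the array that stands apart is left as FVB female, so that fit cannot settle the question. At an unadjusted p under 0.05 this contrast marked 5 of the 27 members, a share close to the 16.5% of all probe sets. Each of these 5 (Slc25a20, Acaa2, Decr1, Etfb and Ppara) had the smaller fall in females.

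Among transgenic hearts alone, all 3 males of 3 weeks lay below all 3 females of that age in 14 of the 27 members, and none showed the reverse, while 6.63% of all probe sets had males below females. Cd36 read 290, 381 and 289 in these males and 522, 578 and 431 in the females. Slc25a20 read 847, 816 and 872 in the males and 1477, 1489 and 1104 in the females. The same separation held for 2 of the 14 cardiomyocyte markers, and 2 of the 20 macrophage markers had males above females. The macrophage sums were 55691 to 65195 in these males and 50168 to 53714 in the females. This is a description of 3 against 3 arrays, with no test, and the part of the macrophage signal in it was not tested.

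The later ages exist only as transgenic hearts, so against FVB hearts of 3 weeks age and transgene cannot be told apart. The 23 members that were lower at 3 weeks stood at 23.4% to 62.4% of the FVB mean at 13 weeks (median 48.1%) and at 22.8% to 72.5% at 40 weeks (median 49.0%). All 3 arrays of 13 weeks lay below all 5 FVB arrays in 22 of the 27 members, against 11.3% of all probe sets, and all 3 arrays of 40 weeks did so in 19, against 10.9%. Both ages did so in 19 members, against 7.61% of all probe sets. Ppargc1a was the lowest at both ages, with signals of 167, 107 and 113 at 13 weeks and 69.8, 208 and 101 at 40 weeks. Ucp3 read 78.1, 88.1 and 117 at 13 weeks and 103, 116 and 134 at 40 weeks, each below the lowest FVB array of 201. Cpt1a read 729, 927 and 765 at 13 weeks and 694, 991 and 826 at 40 weeks, within or above the FVB range of 231 to 907.

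Change with age was tested within transgenic hearts of 1 sex each, 13 against 3 weeks in males and 40 against 3 weeks in females, so age and sex differ together between the 2 changes. Both use transgenic arrays of 3 weeks that also enter the comparison with FVB hearts. At 13 weeks no member was called by limma, with 0.523% of all probe sets called, 0.349% as higher, and 5 had an unadjusted p under 0.05 (4 higher and 1 lower), against 8.61% of all. The median log2 difference of the members was 0.38, with 22 positive and 5 negative. Over all probe sets the median was -0.0051, and 49.4% were positive. All 3 males of 13 weeks lay above all 3 males of 3 weeks in 9 of the 27 members, against 7.57% of all probe sets, and 1 member showed the reverse, against 8.22%.

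The genes of uptake had the highest median of the roles at 13 weeks, 0.74. Cd36 read 572, 830 and 539 at 13 weeks and 290, 381 and 289 at 3 weeks, which did not overlap, and the difference was 1.002 ± 0.27 on the log2 scale (SE, limma, adjusted p = 0.13). Slc27a1 read 269, 399 and 336 at 13 weeks and 89.6, 101 and 333 at 3 weeks, so 1 young array lay among the older ones, with a log2 difference of 1.19 ± 0.39 (SE, limma, adjusted p = 0.28). Ech1 read 4321, 5839 and 5430 at 13 weeks and 3124, 3431 and 2774 at 3 weeks. Its log2 difference of 0.73 ± 0.18 (SE, limma) had the smallest adjusted p of the members, 0.091. Ppargc1a went the other way, with a log2 difference of -0.95 ± 0.44 (SE, limma, adjusted p = 0.58). Ppara and Rxra differed by 0.05 and -0.08.

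At 40 weeks no member was called by limma, with 0.671% of all probe sets called, and 6 had an unadjusted p under 0.05 (1 higher and 5 lower), against 9.10% of all. The median log2 difference of the members was -0.19, with 8 positive and 19 negative. Over all probe sets the median was 0.0092, and 48.7% were negative. All 3 females of 40 weeks lay above all 3 females of 3 weeks in 3 members and below them in 3, against 9.49% and 7.57% of all probe sets. The regulators had the lowest median of the roles, -0.77. Ppara read 549, 610 and 681 at 40 weeks and 797, 1180 and 1200 at 3 weeks, with no overlap and a log2 difference of -0.77 ± 0.19 (SE, limma, adjusted p = 0.11). Hadh read 1483, 1154 and 1072 at 40 weeks and 2510, 2067 and 2123 at 3 weeks, also with no overlap, and its log2 difference was -0.86 ± 0.22 (SE, limma, adjusted p = 0.12). Acaa2 read 3942, 3950 and 5044 at 40 weeks and 6331, 8800 and 5482 at 3 weeks, and differed by -0.65 ± 0.23 (SE, limma, adjusted p = 0.33). Ppargc1a differed by -1.27 ± 0.44 (SE, limma, adjusted p = 0.33), and Acads, the sole member of these 6 that was higher, by 0.55 ± 0.23 (SE, limma, adjusted p = 0.46).

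The median of the difference between the changes, 40 weeks in females minus 13 weeks in males, was -0.50 over the members and 0.0048 over all probe sets. This difference also holds the gap between transgenic males and females of 3 weeks, so it is not independent of the description of those arrays above. There, all males lay below all females in 14 of the 27 members. No member and none of the 7453 probe sets (0%) was called in that contrast by limma. At an unadjusted p under 0.05 it marked 6 members, all negative, against 2.87% of all probe sets. The macrophage markers differed little with age, with medians of 0.007 at 13 weeks and -0.02 at 40 weeks, and the cardiomyocyte markers had medians of 0.28 and 0.26.

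**Figure D5:**
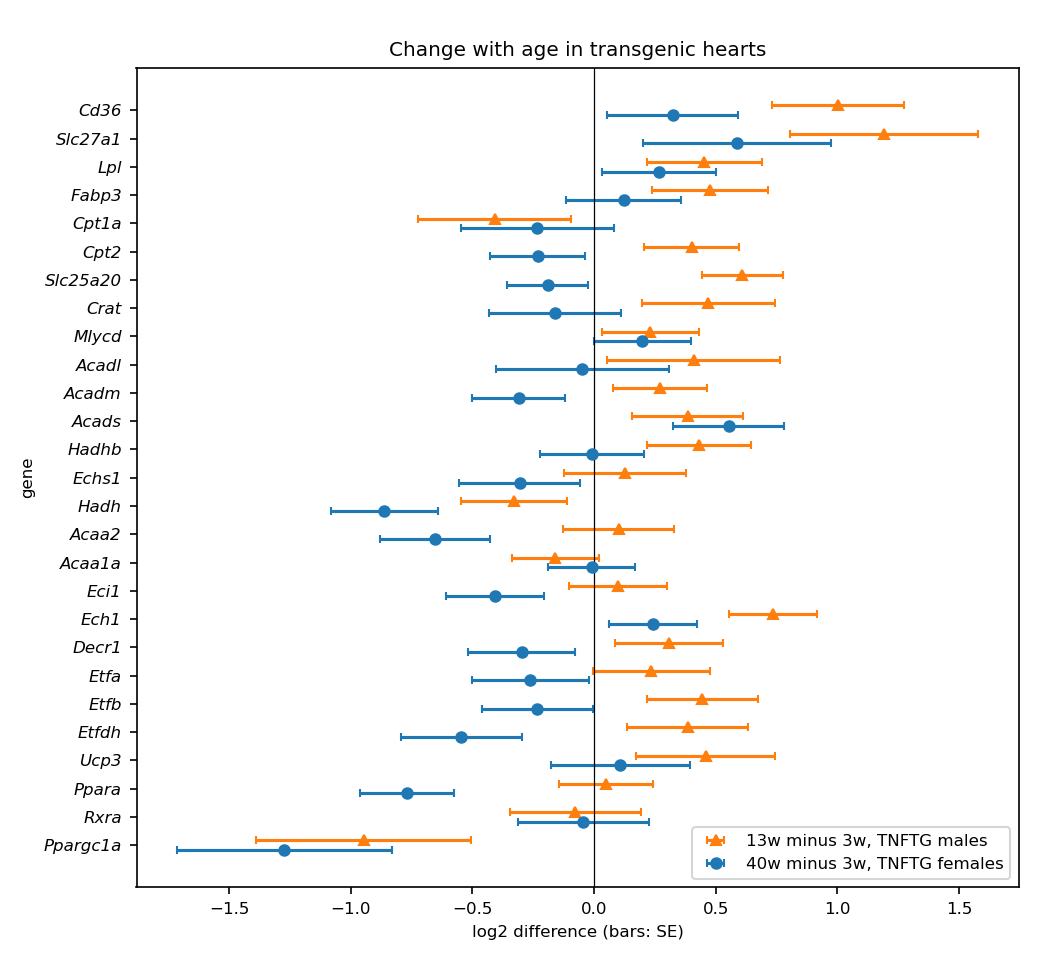
Log2 difference with age within transgenic hearts for the 27 tested members, 13 minus 3 weeks in males (triangles) and 40 minus 3 weeks in females (circles), with the SE as bars. Most triangles lie right of 0 (22 of 27) and most circles left of it (19 of 27), and no member passed the test in either.

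Genes around the module were looked up from further lists, on the same test at 3 weeks. In it 21.9% of all probe sets were called lower and 24.7% higher. These shares stand beside the counts of every list below and of the cell type markers above. Of 27 tested genes of other mitochondrial acyl-CoA and carnitine metabolism, 17 fell and 4 rose, with a median log2 difference of -0.61. Pdk4, the kinase that holds back pyruvate oxidation and is itself a PPAR target, averaged 1509 ± 964 in transgenic hearts and 6123 ± 2356 in FVB hearts (SD, n = 6 and 5), a log2 difference of -2.10 ± 0.28 (SE, limma, adjusted p = 2.0e-05). Bckdha, of branched-chain keto acid oxidation, differed by -1.40 on the log2 scale and Auh, a hydratase of leucine breakdown, by -1.09. Acsl5, an acyl-CoA synthetase that is not the main form of heart, rose by 1.84 on the log2 scale. It averaged 910 ± 178 in transgenic hearts and 279 ± 92.1 in FVB hearts.

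Of 14 other regulators of lipid metabolism tested, 5 fell and 0 rose, with a median of -0.19. Among them Esrra, the estrogen-related receptor alpha that acts with PGC-1 alpha, averaged 1220 ± 262 in transgenic hearts and 2347 ± 340 in FVB hearts (SD, n = 6 and 5), a log2 difference of -0.96. Rxrg, the retinoid X receptor of striated muscle, differed by -1.64 on the log2 scale, Pparg by -0.71 and Prkab1, a subunit of the AMP-activated kinase, by -0.40. Of 15 peroxisomal genes tested, 8 fell and 0 rose, with a median of -0.44. Pex11a, which divides peroxisomes, differed by -1.20 on the log2 scale, Phyh, of phytanic acid oxidation, by -0.76, the catalase gene Cat by -0.58 and the transporter gene Abcd3 by -0.54.

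Of 20 genes of triglyceride storage and lipolysis tested, 14 fell and 3 rose, with a median of -0.87. Ces1d, a carboxylesterase that can cleave triglyceride, averaged 51.0 ± 52.1 in transgenic hearts of 3 weeks and 945 ± 455 in FVB hearts (SD, n = 6 and 5). Its log2 difference of -3.82 understates the fall, since transgenic arrays lay at the floor. It was called higher at both later ages against 3 weeks, with log2 differences of 2.26 at 13 weeks and 1.94 at 40 weeks (limma, adjusted p = 0.018 and 0.040). Plin4, a lipid droplet coat protein, differed by -1.89 on the log2 scale at 3 weeks and Lpin1, a phosphatidate phosphatase that also acts with PGC-1 alpha, by -1.09. Lipa, the acid lipase of lysosomes, rose by 2.50.

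Fatty acid synthesis did not move one way: 4 of 11 tested genes rose and 3 fell, with a median of 0.23. The desaturase gene Scd2 rose by 1.17 on the log2 scale, while its relative Scd1 differed by -1.36, Thrsp by -1.22 and the malic enzyme gene Me1 by -0.92. Thrsp was called higher at 13 than at 3 weeks, by 1.204 (limma, adjusted p = 0.018). Of the ketone body genes 2 were tested: Oxct1, which activates ketone bodies for oxidation, fell by 0.77 on the log2 scale, and the monocarboxylate transporter gene Slc16a1 differed by -0.51 without passing the test.

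Other cell types were also read from markers. Of 3 adipocyte markers tested Cidea fell (log2 difference -0.94), and the summed signal of the 7 on the array was 1071 to 1557 in transgenic hearts of 3 weeks and 1686 to 2447 in FVB hearts. Of 11 fibroblast markers 6 rose and 1 fell, with a median of 0.43 and overlapping sums of 33610 to 43980 in transgenic hearts and 27370 to 46530 in FVB hearts. Of 6 skeletal muscle markers tested 4 fell and 1 rose, and the sums of 13 were 10830 to 14680 in transgenic hearts and 8392 to 11770 in FVB hearts. Ckm, which fell, stands also among the cardiomyocyte markers, and Acta1 is also a cardiac gene of fetal life and of hypertrophy. These counts and sums therefore do not read skeletal muscle alone. The part of these cell types in the values of the module was not tested.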

How the data were processed

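Total RNA of mouse heart was read on 18 arrays in 6 groups, of which 17 were distinct. The authors deposited probe set signals, a linear intensity, already scaled to trimmed means of 499 to 500. Which software and scaling made them is not given in the sources used here. Signals were floored at the 25th percentile of all pooled values, 44.7, and taken as log2. Of 12422 probe sets without controls, the 60% with the highest mean were tested, 7453 in all. Each gene is represented by its brightest probe set with 1 symbol. In the platform annotation 10833 probe sets had 1 gene symbol, 396 several and 1193 none. The two-sided moderated test of limma 3.58.1 (R 4.3.3) was run on 6 group means with 11 residual and 4.89 prior degrees of freedom; p-values were Benjamini-Hochberg adjusted within a comparison. The female and male differences at 3 weeks were averaged. The fit was tested on simulated data.

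The members, the lists and the tests were chosen with earlier results of these data known. Every member is named. Array values are given for the 3 highest and 6 lowest called members at 3 weeks and for Ppara, Ppargc1a, Rxra, Cpt1a, Cd36 and Ucp3. Of each further list up to 4 genes of smallest p are named. No lists were tested as sets. Alternatives were a common median, quantile normalisation, a higher floor (40th percentile), 50 added to the signal before log2 in place of a floor, the brightest 40% or all probe sets, array weights, robust variance with an intensity trend, only the groups compared, 4 groups without sex, a block for the replicate number, averaging a gene's probe sets, keeping both identical columns, and leaving out single or doubted arrays. Precision is limited by the number of arrays.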

Additional observations from a re-analysis of the deposited data

Results flagged for a closer look

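Among 57 sets of 5 or 6 arrays of 3 weeks (1 gene in 1 group) looked at for a lone array far from the others, 1 was marked, where chance marks about 1 in 20. Acadvl, the very long-chain acyl-CoA dehydrogenase, read 149.3 on FVB female array 1-2 and 6.7 to 36.0 on the other 4 FVB arrays, all of which lie below the floor. Signals under the floor were set to it before this look, so any lone value above it would be marked. The rate of 1 in 20 therefore does not apply to this mark. That array is the one with the fewest probe sets below the floor. The cause was not tested.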

How the results depend on the processing

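The count of members called at 3 weeks was 24 and stayed between 22 and 25 in all alternatives run, where 31.7% to 52.4% of all probe sets were called, with 22 for the brightest 40% of probe sets, which tests fewer members, 23 to 25 when 1 array was left out, 24 without the 3 doubted FVB arrays and 23 without FVB males 1 and 2. No member's direction of a call turned in any of them. With the replicate block it was also 24, and the block changed no count. The deviations of same-numbered arrays of different groups correlated between -0.34 and 0.47 (30 pairs), and those of other pairs between -0.38 and 0.33 (60 pairs). Of 15 arrays 8 correlated best with their own number, at most a hint, since no chance share was set beside it and the labels do not explain it. Since not every same-numbered pair passed 0.1, the numbers were not taken to pair the samples. At 13 weeks 0 members were called, against 1 (Ech1, 0.725% of all probe sets) with an intensity trend and robust variance, 2 (Cd36 and Ech1, 1.07% of all) with array weights, and 0 to 1 with 1 array left out (Slc27a1 without transgenic male 3 of 3 weeks, 0.349% of all). At 40 weeks 0 were called, against 5 with array weights (Slc27a1 higher, Acaa2, Eci1, Hadh and Ppara lower), where the share of all probe sets called was 10.8% in place of 0.671%. With 1 array left out 0 to 1 were called (Hadh without either FVB female array, 0.899% of all, and Ppara without transgenic female 1 of 3 weeks, 0.416% of all). The sex difference gave 0, a count that depends on FVB female 3, without which only the array that stands apart is left as FVB female. The difference between the age changes gave 0 throughout. The cause was not tested. Under quantile normalisation 1750 probe sets were higher and 1881 lower at 3 weeks, against 1843 and 1631, and the members' median was -0.96. A common median moved the median of all probe sets in the sex contrast to 0.39, with the members at 0.78.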
